A study of Homo sapiens with 18 samples.

Results

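The genes described here are 32 members of the NF-kappaB system, taken by gene name from a table of 60656 genes. They comprise the subunits NFKB1, NFKB2, REL, RELA and RELB, the inhibitors and feedback genes NFKBIA, NFKBIB, NFKBIE, NFKBIZ, TNFAIP3 and TNIP1, the upstream genes CD40, TRAF1, MYD88, BCL10 and MALT1, and 16 targets. All 32 names were found once in the table. Messenger RNA had been sequenced from U2932 and Ly1, human cell lines of diffuse large B cell lymphoma (DLBCL), a tumour of mature B cells. The labels give U2932 as the activated B cell type (ABC) and Ly1 as the germinal centre B cell type (GCB). In each line 3 libraries came from cells given SGC-GAK-1 at 1 µM for 24 h, 3 from cells given it for 12 h, and 3 from cells given the solvent DMSO, so that there were 18 libraries in 6 groups. SGC-GAK-1 is a small molecule that inhibits the cyclin G-associated kinase GAK. No time is given for the DMSO libraries, and the same 3 of a line serve both treated times. U2932 was grown in RPMI medium and Ly1 in IMDM, each with fetal bovine serum, antibiotics and plasmocin. Each group is therefore 1 line under 1 treatment, and the labels do not say that its replicates were separate cultures, so a p-value here covers just the spread among these libraries.

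NF-kappaB is a family of dimeric transcription factors that inhibitor proteins hold in the cytoplasm. In the canonical branch, signals from the B cell receptor through BCL10 and MALT1, or from Toll-like receptors through MYD88, lead to the degradation of NFKBIA and release dimers of NFKB1 with RELA or REL. In the alternative branch, receptors such as CD40 lead to processing of the NFKB2 precursor and to dimers with RELB. Many targets are themselves inhibitors, subunits or survival genes, and constitutive activity of the pathway is a known trait of ABC lymphomas.

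NF-kappaB binds a short element, the kappaB site, and the stretches printed here show where letters matching its consensus lie just upstream of subunit, inhibitor and target genes whose RNA levels are described further on. The consensus was searched on both strands in the 250 bases before each transcription start, in RefSeq promoter sequences of GRCh38.p14. At least 1 match was found in 15 of the 27 members that have such a sequence (55.6%), against 3221 of all 27305 genes (11.8%). Counted by start sites it was 17 of 48 windows (35.4%), against 3498 of 35116 (9.96%). CD40, CCL4, NFKBIE, RELB and CCL17 were not matched to a sequence. No match was found in RELA, TRAF1, MYD88, BCL10, MALT1, BCL2A1, SOD2, ICAM1, TNFAIP2, CCL3, TNF and IL10. Whether a match goes with the RNA levels was not tested. A match is a description of the letters and not evidence of binding. The members were chosen as pathway genes and known targets, so their share is a description of that choice. The sequences run 5′ to 3′ along the gene's own strand, in lower case, with the matched letters in capitals, overlapping matches being joined. The strand named with each is that of the gene and not of the match. In NFKBIA, TNFAIP3 and BIRC3 the consensus read on the opposite strand only, so their capitals are its reverse complement. In REL and CCL22 it read on both strands. In the subunits they are NFKB1 at chr4:102501285-102501344 (plus strand, match beginning 49 bases before the start), NFKB2 at chr10:102395659-102395704 (plus strand, match beginning 21 bases before the start) and REL at chr2:60881502-60881562 (plus strand, match beginning 47 bases before the start). In the inhibitors they are NFKBIA at chr14:35404796-35404855 (minus strand, match beginning 81 bases before the start), TNFAIP3 at chr6:137867167-137867226 (plus strand, match beginning 67 bases before the start) and NFKBIZ at chr3:101827742-101827801 (plus strand, match beginning 223 bases before the start). In the targets they are BIRC3 at chr11:102317260-102317319 (plus strand, match beginning 199 bases before the start), CFLAR at chr2:201118594-201118653 (plus strand, match beginning 97 bases before the start) and CCL22 at chr16:57358572-57358632 (plus strand, match beginning 186 bases before the start). The NFKB2 and CFLAR stretches precede starts that lie well inside the span of the gene in the deposited table, and the other 3 CFLAR windows held no match. TNFAIP3 holds another match in the lower-case letters that follow the capitals. Further matched stretches are not printed. NFKB2 had them 176 bases before the same start and 107 and 78 bases before another start. BIRC3 had one 135 bases before the same start, and NFKBIZ one 239 bases before another start.
NFKB1: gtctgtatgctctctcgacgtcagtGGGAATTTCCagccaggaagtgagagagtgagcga
NFKB2: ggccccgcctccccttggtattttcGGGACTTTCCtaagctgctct
REL: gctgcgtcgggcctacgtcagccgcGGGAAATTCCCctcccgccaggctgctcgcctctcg
NFKBIA: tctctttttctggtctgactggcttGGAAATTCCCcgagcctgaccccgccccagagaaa
TNFAIP3: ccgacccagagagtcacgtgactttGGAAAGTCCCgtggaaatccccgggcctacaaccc
NFKBIZ: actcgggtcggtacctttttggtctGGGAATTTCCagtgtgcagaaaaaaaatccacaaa
BIRC3: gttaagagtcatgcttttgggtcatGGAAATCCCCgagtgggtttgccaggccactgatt
CFLAR: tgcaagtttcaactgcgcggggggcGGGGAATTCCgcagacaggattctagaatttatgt
CCL22: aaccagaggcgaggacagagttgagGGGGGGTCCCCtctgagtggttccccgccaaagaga

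Total counts per library ran from 22549853 to 29386802. Levels are in CPM, which relates each count to its TMM-adjusted sequencing depth. A gene with no count in a library could by counting error alone stand at up to 3 counts, or 0.104 to 0.138 CPM. The B cell markers MS4A1, CD79A, CD79B, PAX5, CD22 and CD37 each averaged at least 5 CPM in both lines. The 8 T and NK cell markers summed to 2.34 CPM or less in any library and the 8 myeloid markers to 1.2 CPM or less. The 8 fibroblast, endothelial and epithelial markers summed to 30.2 to 40.2 CPM in U2932, of which EPCAM averaged 31.7 CPM, and to 5.83 to 10.4 CPM in Ly1. Of the 11 ABC markers 8 had a higher mean in U2932 under DMSO, among them IRF4, at 544 against 13.6 CPM in Ly1, and CREB3L2, at 172 against 0 CPM. FOXP1, at 85.0 against 111 CPM, IL16, at 72.9 against 133 CPM, and LIMD1, at 33.6 against 38.8 CPM, went against the label. Of the 10 GCB markers 5 had a lower mean in U2932, among them MME, at 93.8 against 839 CPM, and 5 a higher one, which goes against the label, among them SERPINA9, at 107 against 0.314 CPM, and LMO2, at 9.57 against 0.0135 CPM. The libraries numbered 3 stood apart within their groups. In Ly1 DMSO, 19 of 19 glycolysis and hypoxia genes and 20 of 20 genes of G2 and mitosis were higher in replicate 3, with median log2 differences of 0.92 and 0.45. In U2932 DMSO, 0 of 20 genes of G2 and mitosis were higher in replicate 3, with a median of -1.12. Treatment results for the members are therefore given with and without the 6 replicate 3 libraries. In every group replicates 1 and 2 differed less from each other than either did from replicate 3. P-values without replicate 3 cover the spread of that closer pair alone and need not cover the spread among separate cultures.

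Under DMSO most NF-kappaB genes were higher in U2932 than in Ly1. Of 31 members tested, 25 were higher in U2932, 1 was lower (MYD88) and 5 did not pass the test (SOD2, TNIP1, RELA, BCL10 and REL). Across all genes 63% passed in either direction, so a difference between these lines was common. TNFAIP2, CCL3, CCL4, CCL22, CCL17, TNF, IL10 and EBI3 passed the filter on low counts through U2932 alone and had to differ. Every U2932 library lay above every Ly1 library in 25 of the 32 members, these genes among them. In 2 (RELA and MYD88) every U2932 library lay below, and 5 overlapped. The share of all genes without overlap was not computed. Among the 23 members that passed the filter in each line, 17 were higher in U2932, 1 was lower and the median log2 difference was 1.36. The ± beside a log2 difference is its standard error. Among all 13054 such genes, 27.5% were higher, 31.9% were lower, 59.4% passed in either direction and the median was -0.06. With the libraries numbered 3 left out, 29 members passed, 26 of them higher in U2932, beside 73.4% of all genes. The line, its medium and any difference in how the cultures were kept cannot be told apart in this comparison. A library averages over its cells, so fewer expressing cells and less RNA per cell cannot be told apart either.

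Among the subunits, those of the alternative branch differed most. NFKB2 (chr10:102394110-102402524), the precursor of p52, stood at 58.3, 56.5 and 45.4 CPM in U2932 against 10.4, 11.5 and 16.7 CPM in Ly1 in replicates 1, 2 and 3 (log2 2.06 ± 0.15, adjusted p = 6.71e-10). RELB (chr19:45001449-45038198), its usual partner, stood at 59.9, 58.0 and 72.8 CPM in U2932 against 13.9, 14.5 and 27.3 CPM in Ly1 (log2 1.78 ± 0.19, adjusted p = 2.22e-07). NFKB1 (chr4:102501331-102617302), the precursor of p50, stood at 152, 155 and 135 CPM in U2932 against 89.6, 88.3 and 80.7 CPM in Ly1 (log2 0.77 ± 0.11, adjusted p = 4.59e-06). In these 3 genes every U2932 library lay above every Ly1 library. RELA (chr11:65653597-65663090), the main activating partner of p50, stood at 93.2, 103 and 100.4 CPM in U2932 against 110.3, 109.6 and 104 CPM in Ly1, and its log2 difference of -0.12 ± 0.08 did not pass (adjusted p = 0.205). Every U2932 library of RELA lay below every Ly1 library, by little at the closest. REL (chr2:60881521-60931612), the lymphoid subunit c-Rel, stood at 109, 107 and 127 CPM in U2932 against 64.7, 65.2 and 128 CPM in Ly1, with a difference of 0.41 ± 0.42 (adjusted p = 0.412). The third Ly1 library of REL reached the U2932 range, while the other two lay well below it. Per kilobase of exon, on the scale of levels, U2932 ranked NFKB1 at 23.5 ± 1.73, RELB at 21.0 ± 2.65, RELA at 18.1 ± 0.948, NFKB2 at 11.9 ± 1.56 and REL at 8.69 ± 0.852 CPM per kb (mean ± SD, n = 3). Ly1 ranked RELA at 19.8 ± 0.639, NFKB1 at 13.8 ± 0.769, REL at 6.53 ± 2.77, RELB at 6.12 ± 2.48 and NFKB2 at 2.86 ± 0.754 CPM per kb (n = 3). NFKB1 and RELB in U2932, and REL and RELB in Ly1, were neighbours in this order that differed by less than an SD. Exon lengths are those of GENCODE 29, which need not be the authors' annotation. Each is the union of exons over all annotated transcripts of the gene, 13170 bases for REL and 3035 for RELB. The order therefore depends on which transcripts are annotated, not on those expressed.

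Of the 6 inhibitors and feedback genes 5 were higher in U2932, and TNIP1 did not pass. NFKBIA (chr14:35401513-35404749), the main IkappaB protein and a target of the pathway, stood at 46.6, 46.6 and 44.2 CPM in U2932 against 18.7, 19.0 and 25.4 CPM in Ly1 (log2 1.12 ± 0.13, adjusted p = 6.21e-07). NFKBIE (chr6:44258166-44265788), another IkappaB protein, stood at 40.7, 43.4 and 37.8 CPM in U2932 against 14.9, 19.0 and 13.5 CPM in Ly1 (log2 1.36 ± 0.12, adjusted p = 9.24e-09). TNFAIP3 (chr6:137867214-137883312), the ubiquitin-editing enzyme A20 that dampens the pathway, stood at 35.5, 35.1 and 35.6 CPM in U2932 against 3.23, 3.08 and 7.66 CPM in Ly1 (log2 2.94 ± 0.31, adjusted p = 3.93e-07). The 3 U2932 libraries of TNFAIP3 lay within 1 CPM of each other, and the third Ly1 library was over 2-fold above the other two. NFKBIZ (chr3:101827991-101861022), a nuclear IkappaB protein that co-activates some targets, stood at 22.3, 17 and 14.5 CPM in U2932 against 1.56, 1.26 and 3.07 CPM in Ly1 (log2 3.20 ± 0.32, adjusted p = 1.27e-07). NFKBIB (chr19:38899700-38908893) had the smallest called difference of this group, at 59.2, 57.8 and 56.4 CPM in U2932 against 44.0, 46.5 and 35.2 CPM in Ly1 (log2 0.46 ± 0.13, adjusted p = 0.00508). TNIP1 (chr5:151029945-151093577), a partner of A20, stood at 217, 219 and 288 CPM in U2932 against 227, 233 and 360.2 CPM in Ly1, and its difference of -0.18 ± 0.15 did not pass (adjusted p = 0.321). Its groups overlapped, and the third library was the highest in each line. NFKBIB shares its locus with SIRT2 and NFKBIZ with NXPE3, which has more reads than NFKBIZ (27831 against 5386 counts over all libraries), and whether the counting used strand is not given in the sources used here. NXPE3 was itself higher in U2932, by 0.78 ± 0.11 on the log2 scale, and its part in the NFKBIZ difference was not tested.

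Of the upstream genes, 3 were higher in U2932, 1 was lower and 1 did not pass. MALT1 (chr18:58671465-58754477), the paracaspase that acts in a complex with BCL10, stood at 182, 189 and 237 CPM in U2932 against 40.2, 39.0 and 36.6 CPM in Ly1 (log2 2.39 ± 0.11, adjusted p = 1.14e-12). CD40 (chr20:46118278-46129863), the receptor for T cell help, stood at 63.6, 60.4 and 68.8 CPM in U2932 against 13.2, 15.8 and 29.8 CPM in Ly1 (log2 1.72 ± 0.21, adjusted p = 1.56e-06). TRAF1 (chr9:120902393-120929173), an adaptor of TNF-family receptors and a target of the pathway, stood at 27.8, 26.6 and 21.1 CPM in U2932 against 2.74, 3.85 and 4.59 CPM in Ly1 (log2 2.76 ± 0.18, adjusted p = 1.79e-10). U2932 was above Ly1 in every library of these genes. MYD88 (chr3:38138478-38143022), the adaptor of Toll-like receptors, stood at 62.7, 61.7 and 75.0 CPM in U2932 against 84.9, 88.7 and 75.5 CPM in Ly1 (log2 -0.32 ± 0.09, adjusted p = 0.00588), a small difference in the opposite direction, and the third libraries of the lines were almost level. Every U2932 library of MYD88 lay below every Ly1 library. BCL10 (chr1:85265776-85276632) stood at 27.2, 28.9 and 35.7 CPM in U2932 against 30.3, 28.2 and 29.2 CPM in Ly1, with a difference of 0.06 ± 0.11 (adjusted p = 0.635).

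Survival and surface targets spanned a wide range of differences. BCL2A1 (chr15:79960892-79971196), an anti-apoptotic BCL2 relative, stood at 83.0, 85.0 and 69.0 CPM in U2932 against 0.728, 0.567 and 1.04 CPM in Ly1 (log2 6.67 ± 0.25, adjusted p = 1.28e-13). CFLAR (chr2:201116154-201176687), the inhibitor of caspase-8 known as cFLIP, stood at 108, 107 and 117 CPM in U2932 against 50.6, 51.5 and 69.7 CPM in Ly1 (log2 0.95 ± 0.13, adjusted p = 2.96e-06). Every U2932 library of both genes lay above every Ly1 library. BIRC3 (chr11:102317450-102339403), the ubiquitin ligase cIAP2, stood at 224, 227 and 299.7 CPM in U2932 against 80.1, 68.2 and 232 CPM in Ly1 (log2 0.98 ± 0.39, adjusted p = 0.0414). The third Ly1 library of BIRC3 lay in the U2932 range, and the gene passed under 9 of 15 alternatives, with log2 differences of 0.68 to 1.78. SOD2 (chr6:159669069-159762529), the mitochondrial superoxide dismutase, stood at 82.2, 79.2 and 123 CPM in U2932 against 154, 144 and 86.6 CPM in Ly1, a difference of -0.44 ± 0.20 that did not pass (adjusted p = 0.0610). Without the replicate 3 libraries SOD2 was lower in U2932, at -0.89 ± 0.06 (adjusted p = 3.27e-17), and over its 15 alternatives the adjusted p ran from 3.27e-17 to 0.239. WTAP and ACAT2 overlap SOD2 and hold 47304 and 49582 counts over all libraries beside its 45820. They were lower in U2932 as well, by log2 differences of -1.05 ± 0.07 and -0.49 ± 0.13, and their part in the SOD2 values was not tested. ICAM1 (chr19:10271093-10286615), an adhesion molecule, stood at 83.9, 85.9 and 94.8 CPM in U2932 against 7.56, 8.06 and 6.06 CPM in Ly1 (log2 3.61 ± 0.16, adjusted p = 8.87e-13). CD83 (chr6:14117256-14136918), an activation marker of B cells and dendritic cells, stood at 228, 240.3 and 267 CPM in U2932 against 13.5, 14.8 and 33.6 CPM in Ly1 (log2 3.58 ± 0.35, adjusted p = 4.02e-07). TNFAIP2 (chr14:103121476-103137439), a target induced by TNF, stood at 96.8, 93.6 and 142 CPM in U2932 against 0.0347, 0.0405 and 0.519 CPM in Ly1, that is 8539 counts against 14. The ratio of these sums was 606, with an exact 95% Poisson interval of 361 to 1109 that covers counting error only.

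Apart from LTA, the chemokines and cytokines were below 1 CPM in every Ly1 DMSO library. CCL22 (chr16:57358783-57366189), which attracts T cells through CCR4, stood at 32.4, 38.4 and 22.5 CPM in U2932 and had 0 counts in each of the 3 Ly1 DMSO libraries. Set against a floor of 3 counts over the Ly1 group (0.0391 CPM), it was at least 794-fold higher in U2932. CCL17 (chr16:57404767-57416063), the other CCR4 ligand, stood at 0.635, 0.362 and 0.0392 CPM in U2932, the last value being 1 count, and at 0 in each Ly1 library, at least 8.94-fold higher by the same floor. EBI3 (chr19:4229523-4237528), a subunit of interleukin-27 and interleukin-35, stood at 0.486, 1.04 and 0.510 CPM in U2932 and at 0 in each Ly1 library, at least 17.2-fold higher. These 3 genes were thus found in U2932 and at 0 in each Ly1 DMSO library. CCL3 (chr17:36088256-36090169), an inflammatory chemokine, stood at 14.2, 13.3 and 6.20 CPM in U2932, and 869 counts there faced 1 in Ly1, a ratio of 863 with an interval of 155 to 34143. CCL4 (chr17:36103827-36105621), its neighbour, stood at 6.99, 5.86 and 3.30 CPM, and 417 counts faced 3, a ratio of 138 (46.9 to 672). CCL3 and CCL4 have near-identical copies in the table, CCL3L3 with 51 to 158 and CCL4L2 with 116 to 285 counts per U2932 library, so the split of reads between copies is uncertain. TNF (chr6:31575565-31578336), an inducer of the pathway and a target of it, stood at 19.8, 16.5 and 20.8 CPM in U2932 against 0.347, 0.0405 and 0.735 CPM in Ly1, a ratio of 52.2 on 28 Ly1 counts (35.9 to 78.8). LTA (chr6:31572054-31574324), lymphotoxin alpha, stood at 11.3, 11.1 and 13.3 CPM in U2932 against 1.66, 2.11 and 5.36 CPM in Ly1 (log2 1.98 ± 0.35, adjusted p = 8.76e-05). IL10 (chr1:206767602-206774541), a cytokine that ABC lymphoma cells can secrete, stood at 3.89, 2.93 and 5.10 CPM in U2932 against 0, 0.0810 and 0.130 CPM in Ly1, a ratio of 61.0 on 5 Ly1 counts (25.9 to 189). The lines did not overlap in LTA, which passed the filter in each line. TNF and IL10 passed it through U2932 alone, so their lack of overlap carries no further information. IL10 overlaps IL19, which holds 344 counts over all libraries beside its 923. IL6 (chr7:22725884-22732002) had 3 counts in U2932 and 0 in Ly1, at or under the floor in both, and was not tested.

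**Figure D1:**
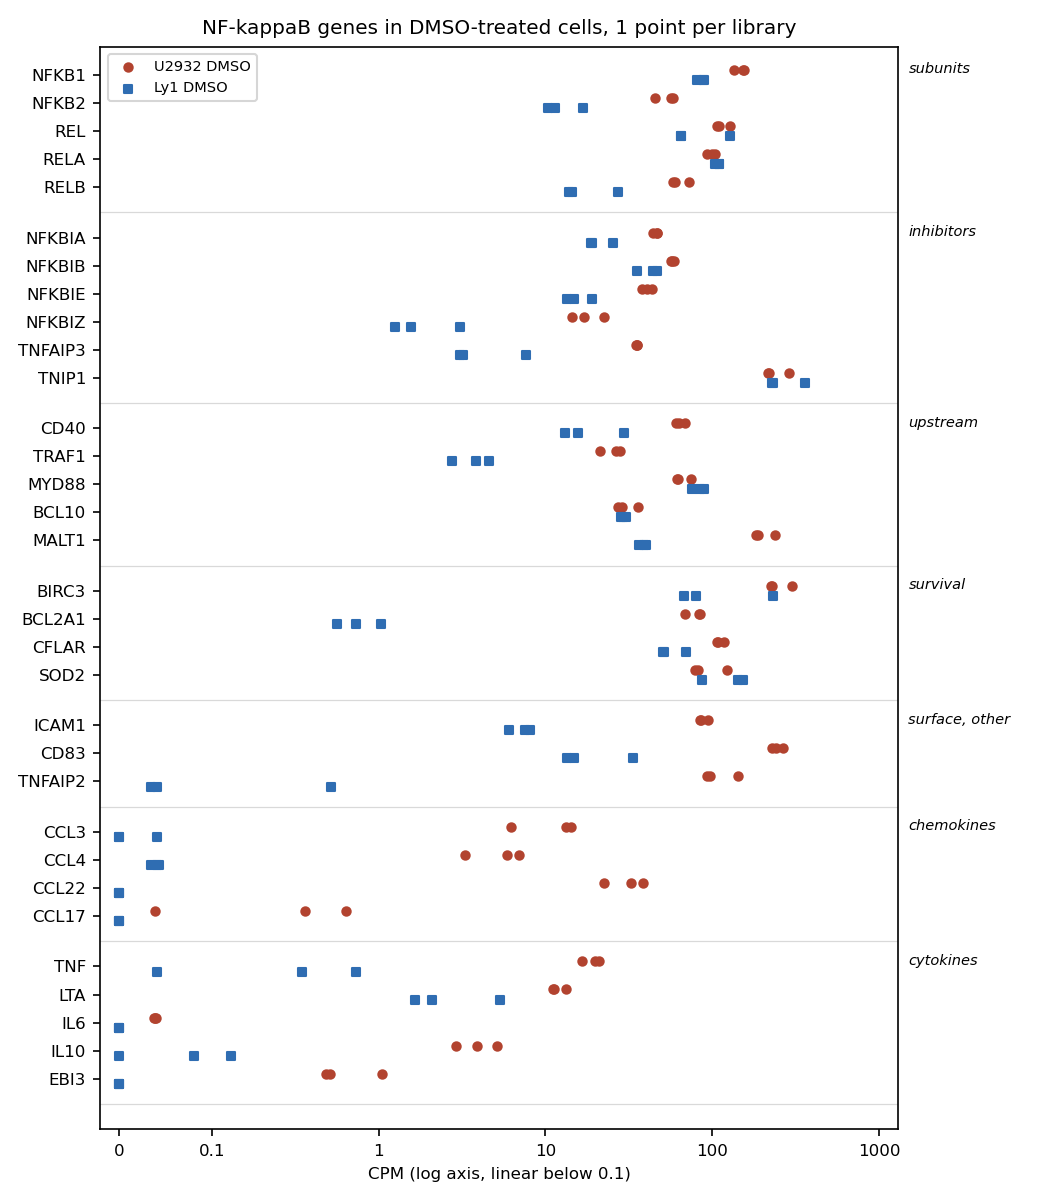
Levels of the 32 genes under DMSO in CPM on a logarithmic axis that is linear below 0.1, with 1 point per library (U2932 circles, Ly1 squares, 3 of each). Genes run down the page by role. The circles lie to the right of the squares for most genes, by little in NFKB1 or NFKBIB and by far in BCL2A1, TNFAIP2, CCL22 and TNF, while RELA, BCL10, TNIP1 and SOD2 lie close together or overlap.

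Other genes of the pathway were counted from lists of 33 upstream genes and 32 further targets. Of the upstream genes, 29 passed the filter in each line, and of these 14 were higher in U2932 and 12 lower, with a median log2 difference of -0.10. Among all genes past the filter in each line, 27.5% were higher, 31.9% were lower and the median was -0.06. The receptors TNFRSF13B, at 56.2 ± 10.8 CPM in U2932 and 0.865 ± 0.175 CPM in Ly1 (mean ± SD, n = 3 each), and TNFRSF1A, at 15.3 ± 2.02 and 1.2 ± 0.342 CPM in the same order, were among the higher ones. TLR7, the sensor of single-stranded RNA, averaged 18.7 ± 4.52 CPM in U2932 and 0.567 ± 0.466 CPM in Ly1. The adaptor TRAF5 was lower in U2932, at 10.1 ± 1.65 CPM, against 92.2 ± 20.7 CPM in Ly1 (log2 -3.19 ± 0.14). The kinase SYK was also lower, at 342 ± 8.02 CPM, against 808 ± 81.5 CPM in Ly1 (log2 -1.24 ± 0.10), as were RBCK1 (-1.13 ± 0.10) and IRAK4 (-0.94 ± 0.09). TNFRSF1B, which encodes a receptor for TNF, passed the filter through U2932 alone and had to differ. It averaged 18.7 ± 1.33 CPM in U2932 and had 0 counts in the Ly1 DMSO libraries. Of the further targets, 29 passed the filter in each line, and 19 were higher and 4 lower in U2932, with a median of 1.83, set against the same shares and median of all genes. IRF4, the transcription factor of activated B cells and plasma cells, averaged 544 ± 17.9 CPM in U2932 and 13.6 ± 5.99 CPM in Ly1, and is also one of the ABC markers. CD80, a ligand of CD28, averaged 9.93 ± 1.01 CPM in U2932 and 0.3 ± 0.161 CPM in Ly1. IL4I1 averaged 13.9 ± 0.730 CPM in U2932 and 0.401 ± 0.217 CPM in Ly1. TNFAIP8L2 (-1.32 ± 0.22), MAP3K8 (-1.02 ± 0.16), IL2RG (-0.69 ± 0.21) and TNFAIP8 (-0.45 ± 0.09) were lower in U2932. CD44, an adhesion receptor, passed the filter through U2932 alone, at 93.7 ± 5.97 CPM, against 0.0423 ± 0.0433 CPM in Ly1.

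In U2932 the changes after 24 h of SGC-GAK-1 were small beside the differences between the lines. With edgeR 0 of 31 members passed at 24 h against DMSO, and 0% of all 15138 genes did. DESeq2 and limma voom also called 0 members. Unadjusted p-values under 0.05 were found for 8 members by edgeR and DESeq2 and 7 by voom, beside 11.3% of all genes by edgeR. The median log2 change of the members was 0.14, and that of all genes was 0.003. Within replicate numbers 1, 2 and 3 the median over the members was 0.12, 0.16 and 0.04.

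In U2932 the libraries of the same number deviated together, and a fit with the replicate number as a block called 4 members at 24 h against DMSO, beside 4.41% of all genes. NFKBIZ, the nuclear IkappaB protein, stood at 30.0, 31.4 and 20.3 CPM at 24 h against 22.3, 17 and 14.5 CPM in DMSO, and was higher by 0.62 ± 0.10 with the block (adjusted p = 0.0101) and by 0.62 ± 0.21 without it (adjusted p = 0.345). CFLAR stood at 122, 125 and 152 CPM against 108, 107 and 117 CPM, higher by 0.29 ± 0.06 with the block (adjusted p = 0.0228, without it 0.315). Its 3 treated libraries lay above the 3 of DMSO, and each replicate number showed the same direction. CCL22 stood at 43.6, 48.1 and 32.9 CPM against 32.4, 38.4 and 22.5 CPM, higher by 0.45 ± 0.11 with the block (adjusted p = 0.0369, without it 0.439). SOD2 stood at 68.9, 65.9 and 77.1 CPM against 82.2, 79.2 and 123 CPM, lower, at -0.37 ± 0.08, with the block (adjusted p = 0.0239, without it 0.428). The treated groups of NFKBIZ and CCL22 overlapped with DMSO, since replicate 3 was the lowest library in both groups, while within each replicate number the treated library was the higher one. The treated libraries of SOD2 lay below those of DMSO. Over the 15 alternatives the adjusted p ran from 0.000651 to 0.679 for NFKBIZ, 0.00566 to 0.628 for CFLAR, 0.000670 to 0.770 for CCL22 and 0.00666 to 0.770 for SOD2. SOD2 shares its locus with WTAP and ACAT2, whose log2 changes in the same comparison were 0.11 ± 0.07 and -0.05 ± 0.13. That of NXPE3, which overlaps NFKBIZ, was -0.01 ± 0.08.

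Without the replicate 3 libraries 12 of the 31 members passed at 24 h in U2932, 11 of them higher, beside 9.01% of all genes. These were NFKBIZ (0.66), CCL22 (0.40), NFKBIE (0.29), TRAF1 (0.28), CFLAR (0.23), CD40 (0.23), TNFAIP3 (0.21), ICAM1 (0.21), BCL2A1 (0.20), TNFAIP2 (0.20) and RELB (0.19) on the higher side and SOD2 (-0.24) on the lower, as log2 changes. TRAF1 stood at 31.8, 33.1 and 30.4 CPM at 24 h against 27.8, 26.6 and 21.1 CPM in DMSO, and all treated libraries lay above all of DMSO. TNFAIP3 did so too, at 39.5, 40.9 and 41.3 CPM against 35.5, 35.1 and 35.6 CPM. NFKBIE stood at 48.1, 53.0 and 42.8 CPM against 40.7, 43.4 and 37.8 CPM, with overlap through replicate 3. These 3 genes encode feedback inhibitors and an adaptor, and with all replicates none of them passed (adjusted p = 0.379, 0.367 and 0.365). The treated libraries lay wholly above DMSO in 6 of the 31 members and wholly below in 3. Those below were SOD2, CD83 (205, 216 and 190 against 228, 240 and 267 CPM) and MYD88 (60.7, 60.7 and 54.9 against 62.7, 61.7 and 75.0 CPM). The share of all genes without overlap was not computed. None of the 5 subunits passed with all replicates, with log2 changes over all replicates of 0.10 for NFKB1, 0.20 for NFKB2, -0.08 for REL, -0.07 for RELA and 0.14 for RELB.

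At 12 h in U2932 0 of 31 members passed (edgeR, DESeq2 and voom). Among all 15138 genes edgeR and voom called 0 and DESeq2 called 11. By each tool 2 members had an unadjusted p under 0.05, beside 3.42% of all genes by edgeR. With edgeR these were the neighbouring chemokine genes. CCL3 stood at 19.1, 17.8 and 28.7 CPM at 12 h against 14.2, 13.3 and 6.20 CPM in DMSO, a log2 change of 0.96 ± 0.33 (adjusted p = 0.999). CCL4 stood at 9.85, 7.88 and 15.1 CPM against 6.99, 5.86 and 3.30 CPM, a change of 1.02 ± 0.29 (adjusted p = 0.999). In both genes every treated library lay above every DMSO library, and replicate 3 held the highest treated and the lowest DMSO value. They were the 2 of 31 members without overlap, and the share of all genes without overlap was not computed. The change of CCL3 within replicates 1, 2 and 3 was 0.42, 0.40 and 2.12. In replicates 1 and 2 alone CCL3 passed with 0.43 ± 0.10 (adjusted p = 0.0151, range over alternatives 0.0151 to 1.00), as did REL with -0.30 and CD83 with -0.22, beside 2.86% of all genes. Between 24 h and 12 h 0 of 31 members passed with edgeR, beside 0% of all genes with edgeR. Unadjusted p-values were under 0.05 for 5 by edgeR, 6 by DESeq2 and 4 by voom, beside 8.42% of all genes by edgeR. With the block SOD2 passed, at -0.37 ± 0.08 (adjusted p = 0.0439, range over alternatives 0.00151 to 0.903), beside 0.997% of all genes. In replicates 1 and 2 alone 14 members passed between the treated times, beside 6.19% of all genes. Of these 11 were higher at 24 h, led by TRAF1 (0.52), NFKBIZ (0.51) and LTA (0.40), and CCL3 (-0.40), SOD2 (-0.30) and MALT1 (-0.22) were lower.

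In Ly1 0 of 23 members passed at 24 h against DMSO with edgeR, beside 0.55% of all genes. DESeq2 and voom called 0 as well, and unadjusted p-values were under 0.05 for 3 members by edgeR and DESeq2 and 2 by voom, beside 16.5% of all genes by edgeR. With edgeR they were MALT1, at 30.6, 28.9 and 33.3 CPM against 40.2, 39.0 and 36.6 CPM (log2 -0.32 ± 0.09, adjusted p = 0.14), ICAM1, at 10.9, 11.2 and 8.61 CPM against 7.56, 8.06 and 6.06 CPM (0.50 ± 0.18, 0.219), and SOD2. For MALT1 and ICAM1 the groups did not overlap and each replicate number moved the same way. Of the 23 members 1 lay wholly above DMSO and 1 wholly below. The share of all genes without overlap was not computed, so the separation is a description only. SOD2 stood at 85.6, 91.6 and 109.6 CPM at 24 h against 154, 144 and 86.6 CPM in DMSO (log2 -0.42 ± 0.18, adjusted p = 0.282). Its first and second replicates lay far below DMSO, and the third lay above its own DMSO library, with changes of -0.84, -0.65 and 0.34. WTAP and ACAT2, which overlap SOD2, had log2 changes of 0.08 ± 0.08 and 0.07 ± 0.11. The median log2 change of the members was 0.02 and that of all genes -0.01, and within replicates 1, 2 and 3 the members' median was 0.23, 0.13 and -0.12.

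**Figure D2:**
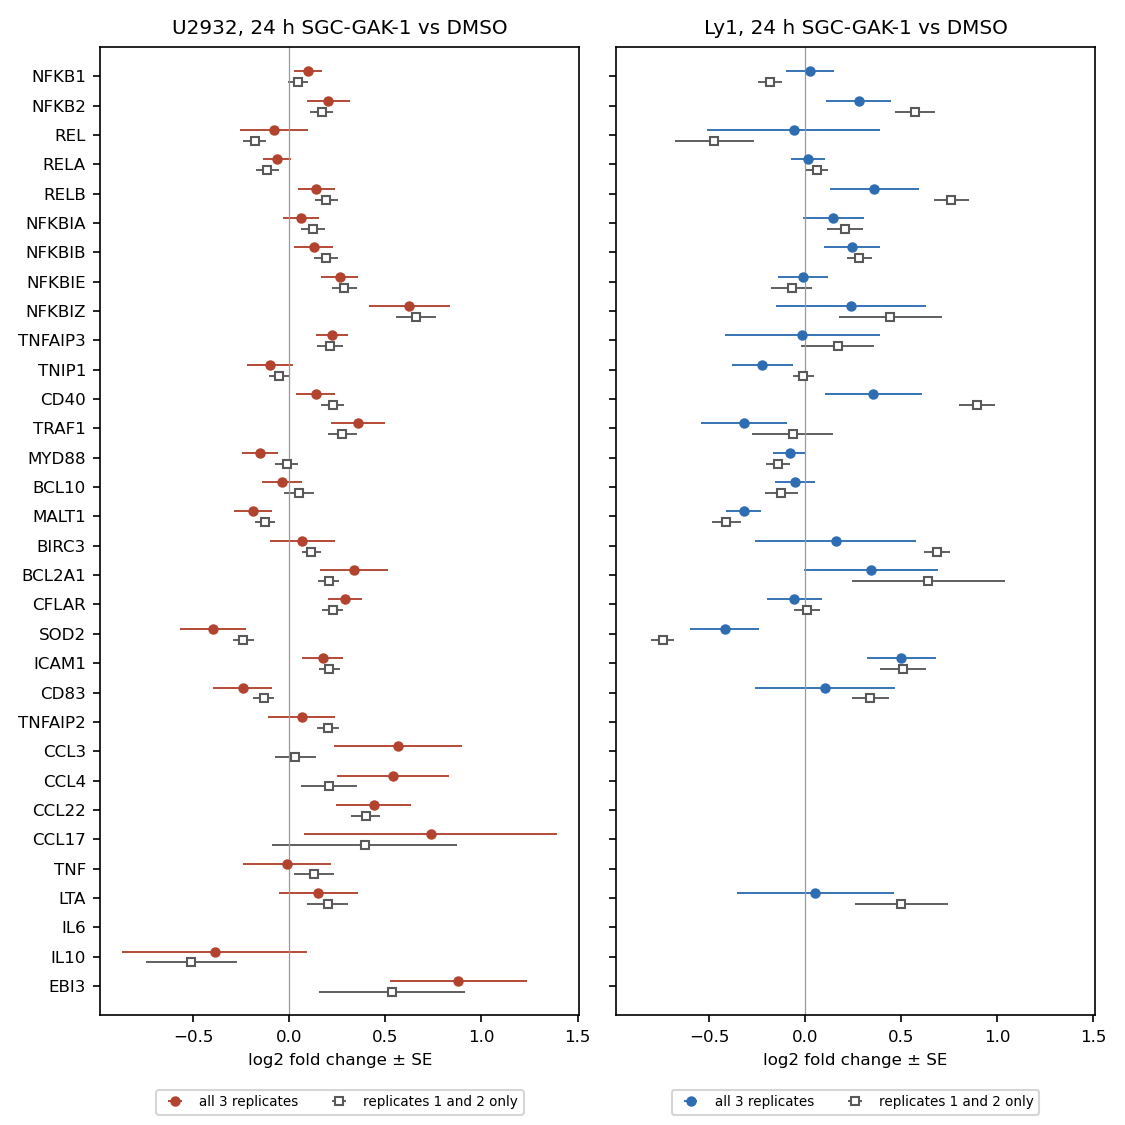
Log2 fold change at 24 h of SGC-GAK-1 over DMSO (x axis, ± SE) for each tested gene (rows), in U2932 on the left and Ly1 on the right. Filled circles use all 3 replicates and open squares replicates 1 and 2 only. In Ly1 the open squares of CD40, RELB, BIRC3 and NFKB2 lie well to the right of the circles and that of SOD2 to the left, while in U2932 most pairs lie close together.

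The Ly1 result at 24 h depended on the third replicate. Without the 6 replicate 3 libraries 10 of 23 members passed, 7 higher and 3 lower, beside 46.2% of all genes, so the members' share was close to that of genes in general. CD40 stood at 26.7, 26.7 and 21.7 CPM at 24 h against 13.2, 15.8 and 29.8 CPM in DMSO, a change of 0.89 ± 0.09 in replicates 1 and 2 (adjusted p = 2.01e-08) and of 0.35 ± 0.25 in all 3 (adjusted p = 0.508). RELB stood at 23.2, 24.7 and 23.6 CPM against 13.9, 14.5 and 27.3 CPM, 0.76 ± 0.09 in replicates 1 and 2 and 0.36 ± 0.23 in all 3. NFKB2 stood at 16.7, 15.5 and 14.5 CPM against 10.4, 11.5 and 16.7 CPM, 0.57 ± 0.11 and 0.28 ± 0.17 in the same order. All 3 encode parts of the alternative branch, and in each the third DMSO library matched or exceeded the treated ones. BIRC3 stood at 119, 119 and 188 CPM against 80.1, 68.2 and 232 CPM, with 0.69 ± 0.07 in replicates 1 and 2 and 0.16 ± 0.42 in all 3. ICAM1 (0.51), CD83 (0.34) and NFKBIB (0.28) were the other higher members, and SOD2 (-0.74), MALT1 (-0.41) and NFKB1 (-0.18) the lower ones. Over the 15 alternatives the adjusted p ran from 2.01e-08 to 0.856 for CD40, 1.53e-07 to 0.790 for RELB, 6.43e-05 to 0.781 for NFKB2, 7.81e-09 to 0.951 for BIRC3 and 1.26e-10 to 0.666 for SOD2. With only DMSO replicate 3 left out 4 members passed (CD40 0.80, RELB 0.75, NFKB2 0.52 and SOD2 -0.63), beside 5.67% of all genes. With only the third 24 h library left out 3 passed (ICAM1 0.61, NFKBIB 0.38 and MALT1 -0.38), beside 21.2%.

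**Figure D3:**
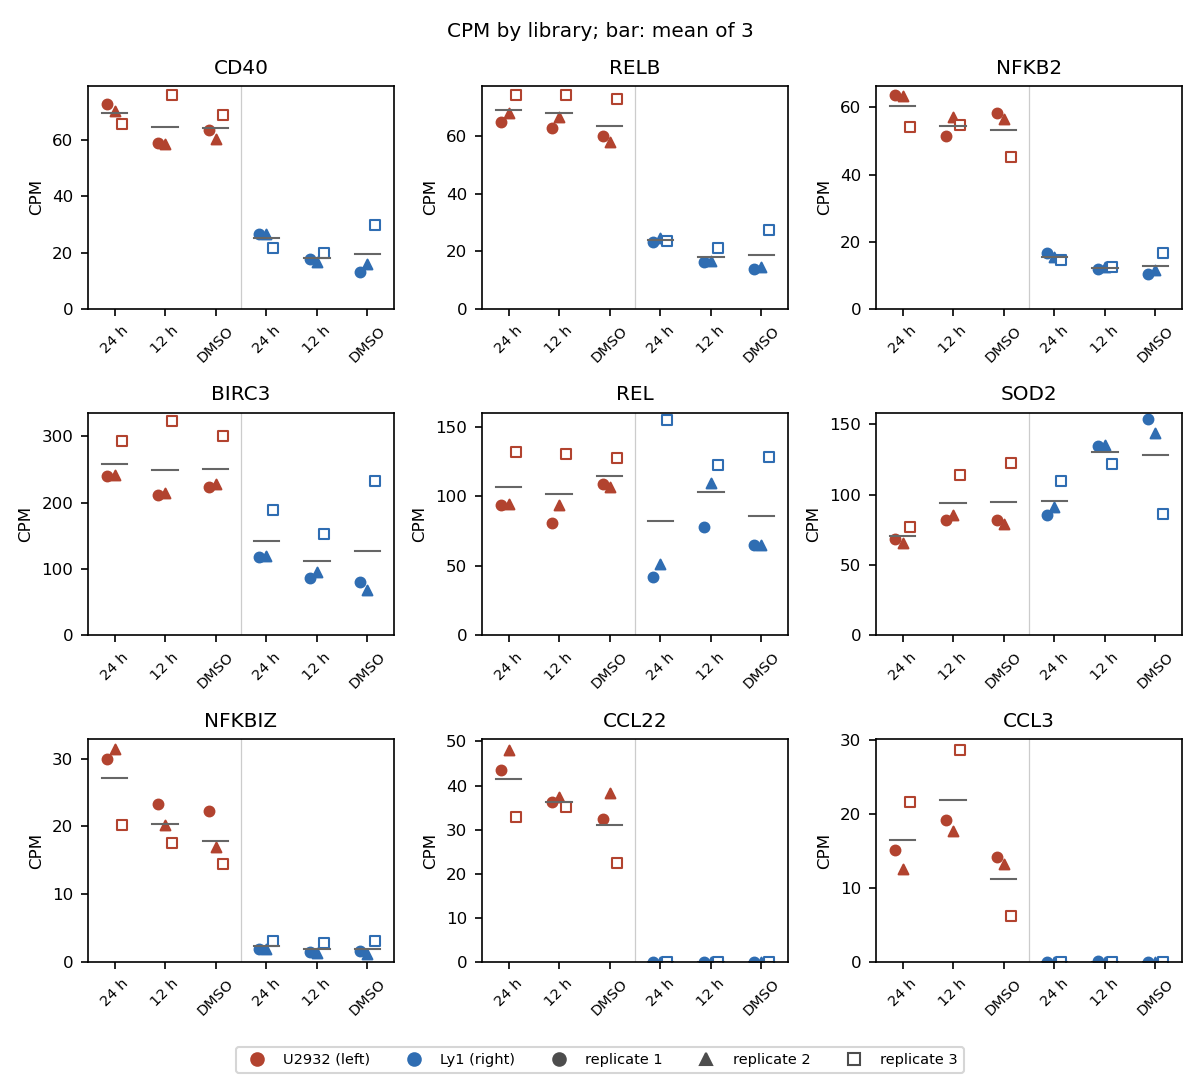
CPM of 9 genes in each library (y axis), with U2932 left and Ly1 right of the line in each panel and 24 h, 12 h and DMSO from left to right. Circles, triangles and open squares are replicates 1, 2 and 3, and the bar is the mean of 3. In Ly1 DMSO the open square stands above the other points for CD40, RELB, NFKB2, BIRC3 and REL and below them for SOD2, and CCL22 and CCL3 lie on the axis in Ly1.

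The third DMSO library of Ly1 held more RNA of several members than replicates 1 and 2. BIRC3 was 3.12-fold higher there than in the mean of the other two, CD83 2.33-fold, CD40 2.02-fold, REL 1.97-fold, RELB 1.88-fold, TNIP1 1.56-fold and NFKB2 1.51-fold, on log2(CPM + 0.5). SOD2 was at 0.583 times their level. Of 18 members of at least 5 CPM, 7 differed upward and 1 downward by over 1.5-fold, and between replicates 2 and 1 none did (0 of 18). Among all genes of that level 5.44% were over 1.5-fold higher in the third library and 2.97% lower. In the same library the glycolysis and hypoxia genes and those of G2 and mitosis were higher too, and their part in the members' difference was not tested. In Ly1 at 24 h the third library held 3.30-fold more REL (41.7, 51.3 and 155 CPM), 1.72-fold more CD83 and 1.58-fold more BIRC3. These were 3 of 18 members, and 0 were over 1.5-fold lower. Among all genes of at least 5 CPM 8.41% were over 1.5-fold higher there and 5.01% lower. Both shares were larger than in the third DMSO library of Ly1. In U2932 the third DMSO library stood furthest apart over all genes of at least 5 CPM, with 3.92% over 1.5-fold higher and 6.67% lower. For the members the U2932 library that stood out was the third of 12 h. There 25 of 29 members were higher than in replicates 1 and 2 and 8 were so by over 1.5-fold, beside 54.1% and 2.61% of all genes of at least 5 CPM. Of the further targets 26 of 28 were higher in it, and of the genes of G2 and mitosis 0 of 20 (median -0.49), and the part of these cell cycle genes in the members' values was not tested. IL10 was 2.73-fold higher in it (3.27, 3.08 and 9.54 CPM), TNF 1.84-fold (14.8, 16.3 and 29 CPM) and LTA 1.76-fold (9.19, 10.2 and 17.5 CPM). The others of the 8 were CCL4 (1.66-fold), BCL2A1 (1.65-fold), CD83 (1.56-fold), CCL3 (1.54-fold) and BIRC3 (1.52-fold). In the third U2932 DMSO library CCL3 was at 0.470, CCL4 at 0.548 and CCL22 at 0.642 times the level of the other two.

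**Figure D4:**
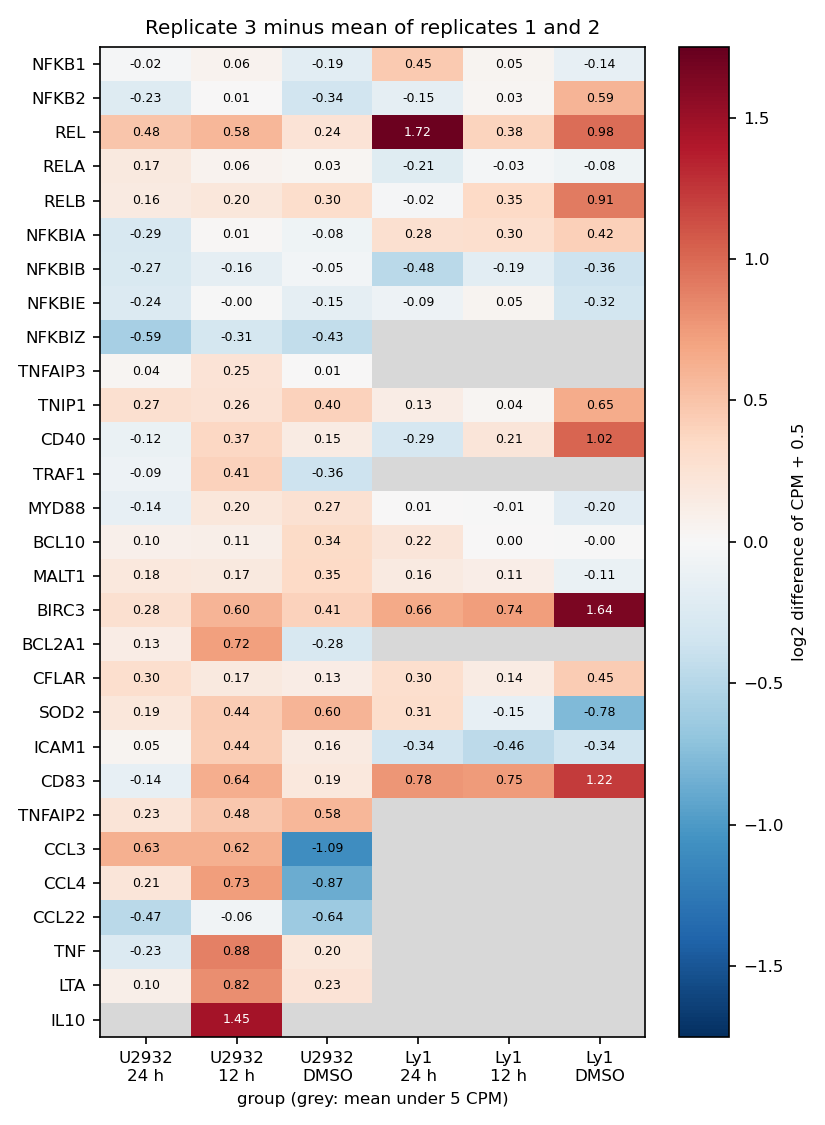
Replicate 3 minus the mean of replicates 1 and 2, as a log2 difference of CPM + 0.5 (colour and number), for each gene (rows) in each group (columns, with U2932 left of Ly1 and 24 h, 12 h and DMSO in order). Grey cells have a mean under 5 CPM. In the Ly1 DMSO column BIRC3 stands at 1.64, CD83 at 1.22 and SOD2 at -0.78, and REL stands at 1.72 in Ly1 at 24 h.

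At 12 h in Ly1 0 of 23 members passed (edgeR, DESeq2 and voom). Among all 14005 genes edgeR and voom called 0 and DESeq2 called 78. TRAF1 alone had an unadjusted p under 0.05 with edgeR, beside 6.13% of all genes. DESeq2 found 1 such member and voom 0. TRAF1 stood at 2.19, 2.71 and 2.81 CPM at 12 h against 2.74, 3.85 and 4.59 CPM in DMSO (log2 -0.53 ± 0.22, adjusted p = 0.774). Without the replicate 3 libraries 1 member passed, BIRC3, at 0.30 ± 0.07 (adjusted p = 0.00514, range over alternatives 0.00514 to 1.00), beside 9% of all genes. With all replicates its change was -0.19 ± 0.42, in the other direction. Between 24 h and 12 h in Ly1 0 of 23 passed with edgeR, beside 0% of all genes with edgeR. By each tool 2 members had an unadjusted p under 0.05, beside 10.3% of all genes by edgeR (SOD2 at -0.45 ± 0.18 and MALT1 at -0.24 ± 0.09 with edgeR). The fold of this contrast does not use the DMSO libraries, though its error does, since the 3 groups of a line share the estimate of spread. SOD2 stood at 85.6, 91.6 and 109.6 CPM at 24 h against 135, 135 and 122 CPM at 12 h, and each replicate number was lower at 24 h. CD40, at 26.7, 26.7 and 21.7 CPM against 17.8, 16.6 and 19.95 CPM, was higher in each replicate number, and its log2 difference of 0.47 ± 0.25 did not pass (adjusted p = 0.504). RELB (0.41 ± 0.23) and NFKB2 (0.36 ± 0.17) were also higher in each replicate number and did not pass. In replicates 1 and 2 alone 11 members passed, 6 higher and 5 lower, beside 41.7% of all genes, and the lowest was REL at -1.0, with 41.7, 51.3 and 155 CPM against 77.7, 109.5 and 122 CPM.

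The difference between the lines in their response was tested on all 18 libraries. At 24 h and at 12 h 0 of 31 members passed with edgeR, DESeq2 and voom, beside 0% of all genes at each time with edgeR. At 24 h 1 member had an unadjusted p under 0.05 by each tool, and at 12 h 1 by edgeR and DESeq2 and 0 by voom, beside 8.33% of all genes at 24 h and 2.5% at 12 h by edgeR. It was TRAF1 with edgeR at both times, with a response in U2932 minus that in Ly1 of 0.65 ± 0.25 at 24 h (adjusted p = 0.479) and 0.54 ± 0.25 at 12 h. Without the replicate 3 libraries 10 members passed at 24 h, 5 in each direction, beside 26.6% of all genes. The response was lower in U2932 than in Ly1 for CD40 (-0.64), RELB (-0.54), BIRC3 (-0.54), CD83 (-0.44) and NFKB2 (-0.37), and higher for SOD2 (0.54), NFKBIE (0.39), MALT1 (0.32), NFKB1 (0.26) and CFLAR (0.25). At 12 h BIRC3 and CD83 passed, beside 4.5% of all genes. A response that passed in one line and not in the other under the same setting is not by itself a difference between the lines.

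Of the 33 further upstream genes 31 were tested in U2932 and 29 in Ly1, and none passed in any comparison within a line with edgeR (0 called), beside 0% to 0.55% of all genes. Of the 32 further targets, all 32 were tested in U2932 and 29 in Ly1, and 1 passed in 1 comparison. CCR7, a receptor that guides lymphocytes to lymph nodes, was at 0.260 ± 0.112 CPM in Ly1 after 24 h and at 1.33 ± 0.181 CPM with DMSO (mean ± SD, n = 3 per group), which is -2.31 ± 0.36 on the log2 scale (adjusted p = 0.0392), at levels under 2 CPM. In replicates 1 and 2 alone it was at -2.68 ± 0.46. With the block in U2932 at 24 h, TLR7 (-0.67 ± 0.13), TNFRSF13C, the receptor for BAFF (-0.52 ± 0.08), and RIPK1 (-0.48 ± 0.09) were lower and TRAF2 (0.25 ± 0.07) was higher among the upstream genes, and CXCR5 (-0.32 ± 0.07) was lower among the targets, beside 4.41% of all genes. In replicates 1 and 2 alone they stood at -0.50 ± 0.11, -0.44 ± 0.06, -0.36 ± 0.07, 0.25 ± 0.06 and -0.26 ± 0.05 in the same order, and each passed, beside 9.01% of all genes. TNFRSF13C averaged 68.3 ± 4.78 CPM at 24 h against 99.5 ± 4.26 CPM in DMSO.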

How the data were processed

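The authors deposited whole-number counts per gene for 18 libraries. The kit was NuGEN Universal Plus mRNA-Seq with 14 PCR cycles, and the reads of 2 runs were combined, per the labels' protocols. The submitters' processing notes name cutadapt, STAR, Picard and hg38, while for versions, counter, strand, annotation and PCR duplicates nothing is stated in the sources used here. Duplicates counted as molecules would make counting intervals too narrow.

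The deposited counts were tested with edgeR 4.0.16 in R 4.3.3 (quasi-likelihood test, TMM scaling, filterByExpr, Benjamini-Hochberg adjustment over all genes tested, threshold 0.05). Each line was fitted on its own 9 libraries, and comparisons across lines on all 18. Of the 32 members 31 were tested in U2932 and across lines and 23 in Ly1. The alternatives were DESeq2 1.42.0, limma 3.58.1 voom, other scalings and filters, only the groups compared, the replicate number as a block, and leaving out each library or all 6 replicate 3 libraries. Gene coordinates are hg38 as in the deposited table. Intervals and floors cover counting error only.

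The labels number the replicates alike in every group. For the pairing, deviations of same-numbered libraries from their group means were correlated over genes of at least 5 CPM. Groups were taken as paired where every correlation was above 0.1. In U2932 the correlations were 0.487 to 0.596 between 24 h and DMSO, 0.628 to 0.778 between 12 h and DMSO and 0.602 to 0.735 between the treated times. These groups were taken as paired, as was Ly1 12 h with DMSO (0.342 to 0.576). The deviations within a group sum to 0, so a replicate 3 that stands apart in both groups raises the other correlations too. The correlations are thus not separate pieces of evidence for pairing. All members are named; those past the threshold with all replicates have values per library, or summed counts where Ly1 had 3 counts or fewer; of the 2 further lists, at most 4 genes past the threshold per direction are named. The members and lists were chosen with earlier results of these data known. Overlapping genes, the CCL3 and CCL4 copies and the counts of members in replicate 3 were chosen after the data were seen.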

Additional observations from a re-analysis of the deposited data

How the results depend on the processing

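Across lines under DMSO 26 members passed, and 25 to 27 did with any 1 library left out. BIRC3 was the only member called there that lost its call under any of the alternatives run. Within a line 0 members passed, and the count moved as follows. The replicate block gave 4 members in U2932 at 24 h against DMSO and 1 at 24 h against 12 h. It called 0 members in the other paired comparisons, 12 h against DMSO in U2932 and in Ly1. By the limit of 0.1 the numbers were not taken to pair Ly1 24 h with DMSO (correlations of 0.0859 to 0.297) or with 12 h (0.0418 to 0.578), nor the lines (-0.209 to -0.0129). The Ly1 correlations were all above 0, and in each of these comparisons only the lowest missed the limit. In these comparisons the block gave 0, 0 and 27 members, beside 275 of 14005, 0 of 14005 and 11087 of 16191 genes. No filter on low counts gave 1 member (SOD2) in Ly1 at 24 h against DMSO and 1 against 12 h, beside 794 and 211 of all 27395 genes. Leaving out all 6 replicate 3 libraries gave 12, 3 and 14 members in U2932 (24 h and 12 h against DMSO, and 24 h against 12 h), 10, 1 and 11 in Ly1, and 10 and 2 for the difference of response at 24 h and 12 h. Under that setting NFKB1 in Ly1 at 24 h (-0.18), BIRC3 in Ly1 at 12 h (0.30) and the response difference of BIRC3 at 12 h (-0.35) had the opposite sign and passed, and the cause was not tested. Leaving out any 1 library gave 0 to 0 members in U2932 and for the responses, 0 to 4 in Ly1 at 24 h against DMSO, 0 to 0 at 12 h and 0 to 1 at 24 h against 12 h. The call in the last case was MALT1, without the third 24 h library, beside 2780 of all 14285 genes. Of 4128 values of members under the alternatives, 397 had the opposite sign while not passing in either fit. Library sizes alone moved the median of all genes by 0.14 (log2) in the response difference at 24 h. Over all genes DESeq2 called 113 in U2932 at 24 h against DMSO and edgeR 0, and in Ly1 they called 535 and 77. Levels under about 0.1 CPM rest on 3 counts or fewer.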
